A study of Homo sapiens with 12 samples.

Results

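The HOX genes of the 4 human HOX clusters were followed in HAP1 cells with and without SETDB1. Members were the protein-coding genes of GENCODE release 29 whose symbol is HOXA, HOXB, HOXC or HOXD followed by digits alone, 39 of the 58735 genes in the count tables. HAP1 is a near-haploid human cell line whose labelled cell type is chronic myelogenous leukemia, and SETDB1 encodes a histone H3 lysine 9 methyltransferase. RNA sequencing was made from wild-type HAP1 cells and from HAP1 cells with a SETDB1 knockout, 3 libraries each, labelled as biological replicates, with a non-directional kit, in which the strand of the RNA is lost. A further 3 libraries of each genotype were made with the directional kit of the same maker. All cells grew in IMDM with serum and antibiotics, with no other treatment named, and the labels do not say whether the knockout is 1 clone, so genotype and clone cannot be told apart. In bulk RNA, fewer cells that express a gene and less RNA per cell cannot be told apart.

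HOX genes encode homeodomain transcription factors that give cells their position along the body axis. Within a cluster the genes point the same way and are numbered by paralog group, and the low-numbered, anterior genes are switched on earlier and nearer the head than the high-numbered, posterior ones. MLL complexes, which methylate histone H3 lysine 4, maintain active HOX genes, and Polycomb complexes keep silent ones repressed, while retinoic acid is a classical inducer of the anterior genes. In blood, HOXA genes such as HOXA9 are expressed in progenitors and in leukemia.

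On GRCh38 the 11 HOXA members spanned 107 kb of chromosome 7 (27092993 to 27200106, minus strand) and the 10 HOXB members 201 kb of chromosome 17 (48528526 to 48729178, minus strand). The 9 HOXC members spanned 117 kb of chromosome 12 (53938765 to 54056030, plus strand) and the 9 HOXD members 98.0 kb of chromosome 2 (176092891 to 176190907, plus strand). No long L1 element of the 6437 loci in the series' L1 tables lay inside a cluster, and the nearest was 84.4 kb from HOXA.

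Of the 39 members, 20 had an entry in the RefSeq promoter table (GRCh38.p14), in 19 distinct windows, since HOXC4 and HOXC5 share 1. HOXB1 was the only HOXB member among them, and HOXC4 and HOXC5 were the only HOXC ones. HOXC11 and HOXC9, the members with the largest changes in RNA, and HOXB9 had no entry. The values therefore describe mainly HOXA and HOXD. The 250 bases before their starts held a median of 20.5 CpG dinucleotides, against 11 over all 27305 promoters of the table, from 4 in HOXD4 to 40 in HOXA13. The pentamer CCAAT, sought on both strands, was present in 17 of the 20 (85%) and in 33.0% of all promoters. TATAAA was present in 4 of 20 (20%) and in 11.1% of all promoters. The windows of 3 members whose RNA changed are printed because they cover the CpG range of the 5 changed members that had an entry. HOXC4 (chr12:54016638-54016887, plus strand, 14 CpG) and HOXD8 (chr2:176129455-176129704, plus strand, 28 CpG) were higher in the knockout, and HOXA13 (chr7:27200092-27200341, minus strand, 40 CpG) was lower. Capitals mark CpG dinucleotides, and each sequence runs 5′ to 3′ on the strand of its gene.
HOXC4: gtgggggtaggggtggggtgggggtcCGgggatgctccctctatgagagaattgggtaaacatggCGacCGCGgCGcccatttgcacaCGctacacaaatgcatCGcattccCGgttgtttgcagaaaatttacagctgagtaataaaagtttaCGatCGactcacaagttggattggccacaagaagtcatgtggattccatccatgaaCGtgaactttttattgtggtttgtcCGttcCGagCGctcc
HOXD8: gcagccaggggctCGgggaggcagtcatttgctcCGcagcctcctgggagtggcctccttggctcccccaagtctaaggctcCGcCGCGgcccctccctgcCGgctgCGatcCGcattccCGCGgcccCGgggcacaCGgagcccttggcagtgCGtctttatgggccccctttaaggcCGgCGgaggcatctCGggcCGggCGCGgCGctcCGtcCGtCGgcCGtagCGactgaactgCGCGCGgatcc
HOXA13: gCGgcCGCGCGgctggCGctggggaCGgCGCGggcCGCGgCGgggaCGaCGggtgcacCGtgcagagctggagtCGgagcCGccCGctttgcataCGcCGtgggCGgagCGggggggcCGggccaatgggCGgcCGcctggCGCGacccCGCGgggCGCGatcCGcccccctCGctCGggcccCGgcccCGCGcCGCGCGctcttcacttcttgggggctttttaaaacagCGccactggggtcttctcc
The HOXC4 and HOXA13 windows hold CCAAT on one of the strands and the HOXD8 window does not. The HOXA13 window has more CpG dinucleotides than 97.9% of the promoters, and it shares 171 bases with the window of HOTTIP, a non-coding RNA gene on the opposite strand whose RefSeq start lies 329 bases away. Whether any of these letters bears on the changes in RNA was not tested.

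The non-directional libraries held 8921959 to 10199215 reads in genes and the directional ones 532021 to 676691, so that 3 counts, taken as the limit of detection, corresponded to 0.294 to 0.336 and to 4.43 to 5.64 counts per 1000000 (CPM). SETDB1 itself gave counts of 651, 543 and 519 (non-directional, wild type) and of 118, 106 and 118 (knockout) (log2 fold change -2.39, SE 0.079, edgeR's adjusted p = 7.0e-43). The 3 knockout libraries agreed within sampling noise (chi-square per degree of freedom 0.956 to 0.991), while the wild-type pairs gave 1.03 to 2.00 (sampling alone gives about 1.0). They carry separate replicate numbers and were kept as 3. Counting them as 1 sample, with the spread taken from the wild-type libraries alone, gave the same number of HOX calls (13). Of 12 blood lineage markers, 6 had no read in wild-type cells and 7 in the knockout, PTPRC (CD45), CD33 and SPI1 having at most 1 read in any library. The summed marker level was 35.2 to 36.1 CPM in wild-type cells and 19.3 to 22.7 CPM in the knockout, nearly all of it TAL1 and KIT, so the labelled blood origin was not visible in most of its markers. The pluripotency genes SOX2 and POU5F1 stood at 789 and 559 CPM in wild-type cells. TAL1 and EPCAM, an epithelial marker, moved with genotype, from 16.1 to 3.24 CPM and from 3.74 to 39.7 CPM. The epithelial markers did not all rise. Of the 3 that were tested 2 were higher, and KRT18 did not pass (log2 fold change -0.10, edgeR's adjusted p = 0.12). A further 1, with reads in wild-type cells, had no read in the knockout. The summed epithelial markers went from 140.5–155.7 to 205–217 CPM (5 genes), the mesenchymal ones from 293–310 to 333–337 CPM (6 genes), the neural ones from 16.7–18.8 to 8.70–10.5 CPM (5 genes) and the pluripotency ones from 1342–1363.5 to 1277–1298.5 CPM (4 genes). The last sum is mostly SOX2 and POU5F1, and within it LIN28A went from 7.79 to 41.0 CPM. Each of the 6 mesenchymal markers had at least 3 counts in some wild-type library. In the knockout 3 of them stayed under 3 counts in every library, 2 of these with no read, so the higher sum does not hold for the whole list. The part of these marker shifts in the HOX values was not tested.

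Which members were expressed was asked first. In the wild type 27 of the 39 members had at least 3 counts in every non-directional library, and 30 did in the knockout. HOXB1, an anterior gene of hindbrain patterning, had no read in any library, which allows at most 0.336 CPM in the least deep non-directional one. On the scale of CPM per kb of exon, HOXD13, which patterns the digits, had by far the highest level of all members, with 27.5 ± 0.79 in wild-type cells and 36.6 ± 0.51 in the knockout (SD, n = 3 each, as for every ± value). In the wild type it was followed by HOXA9 (10.8 ± 1.3), HOXA11 (8.93 ± 0.53), HOXC10 (8.87 ± 0.40) and HOXC9 (7.94 ± 0.52) CPM per kb, all posterior genes, and HOXA11 and HOXC10 lay within the spread of each other. In the knockout HOXC11 stood at 10.2 ± 0.33 CPM per kb, level with HOXA9 (10.2 ± 0.42), and HOXB9 reached 9.31 ± 0.92, while HOXC9 stood at 0.98 ± 0.050. This scale divides by the whole exon length although reads in shared exons are set aside, so it understates members whose exons overlap other genes. HOXA7 stood at 6.35 ± 0.71 CPM per kb in wild-type cells with only 37.5% of its exon length its own. That share was 73.0% for HOXA9 and 100% for HOXC11 and HOXD13. The order of the members below HOXD13 therefore depends on the length used. The plot of levels by library shows the members, without correction for length.

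**Figure D1:**
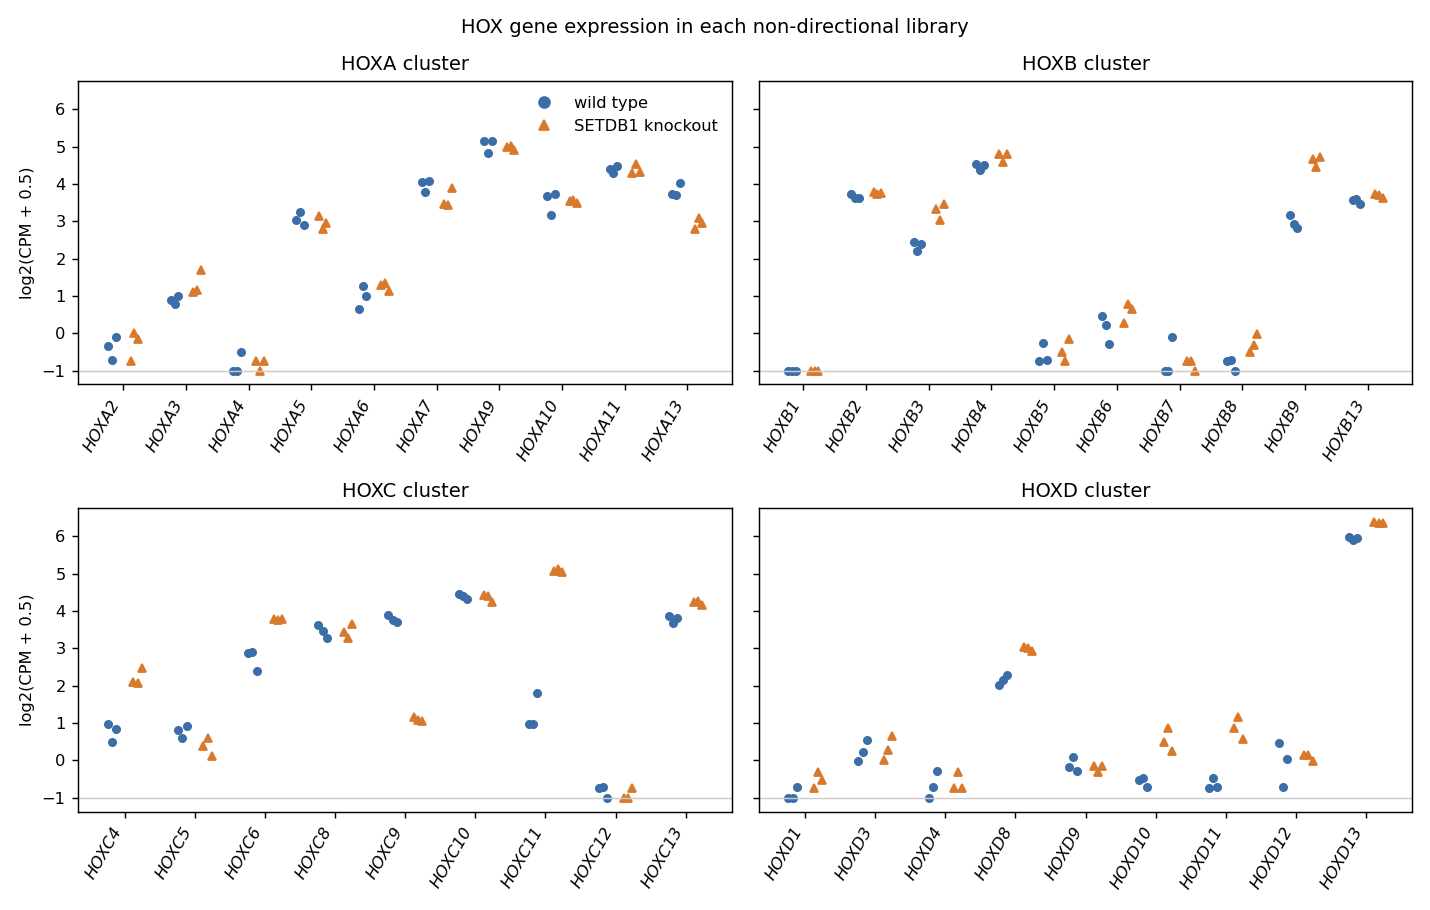
Level of 38 HOX genes in each of the 6 non-directional libraries, as log2 of CPM plus 0.5 (y axis), with one panel per cluster and the genes in order of paralog group (x axis). Each point is 1 library, coloured by genotype; HOXC11 and HOXC9 show the widest separation of wild type and knockout, and HOXD13 the highest level.

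With the filter on low counts 23 members could be tested, and 16 could not, having at most 17 counts in any library. In the knockout 10 members were higher, 3 were lower and 10 did not pass the threshold of 0.05 on the adjusted p of edgeR. This share of 13 in 23 (56.5%) is read against 51.5% of all 13778 genes tested, with 25.5% higher and 25.9% lower, so the number of calls was near the background. At a change of at least 2-fold, 4 members were higher and 1 was lower (5 of 23), against 7.8% of all genes. The median log2 fold change of the tested members was 0.25 against -0.0012 over all genes, and the median of its absolute value was 0.40 against 0.19. Members and all genes were not matched for level, and estimates from low counts spread more widely. The 2-fold share and the median absolute value are therefore not like for like. HOXC4 reached the minimum count in only 2 of the wild-type libraries, and the other 22 tested members reached it in all 6 libraries.

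The calls were counted by cluster. In HOXA 9 members were tested, 1 being higher and 2 lower, with a median log2 fold change of -0.03. In HOXB 3 of 5 were higher and none lower (median 0.25), in HOXC 4 of 7 were higher and 1 lower (median 0.44), and in HOXD both tested members were higher (median 0.66). By position along the clusters, 2 of the 4 tested anterior members (groups 1 to 3), 4 of the 8 central ones (groups 4 to 8) and 4 of the 11 posterior ones (groups 9 to 13) were higher, with 0, 1 and 2 lower. These counts are to be read against 51.5% of all tested genes called, with 25.5% higher and 25.9% lower. On the chromosomes of the clusters the share called was 48.7% (HOXA), 44.8% (HOXB), 45.9% (HOXC) and 50.4% (HOXD). The differences between clusters and between positions were not tested. Exon overlaps make part of these counts uncertain, because the kit does not keep strand and reads shared by 2 genes are set aside. Of the 7 tested members that share no exon with another gene, HOXB9, HOXC11, HOXD8 and HOXD13 were higher, and HOXA5, HOXB13 and HOXC8 did not pass. Some of them still lie within the body of another gene, whose unspliced RNA could be counted to them. HOXD8 lies within HOXD-AS2, HOXC8 within HOXC6, HOXB9 within HOXB7, and HOXA5 within HOXA3 and HOXA-AS3. The body of HOTAIR overlaps HOXC11.

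**Figure D2:**
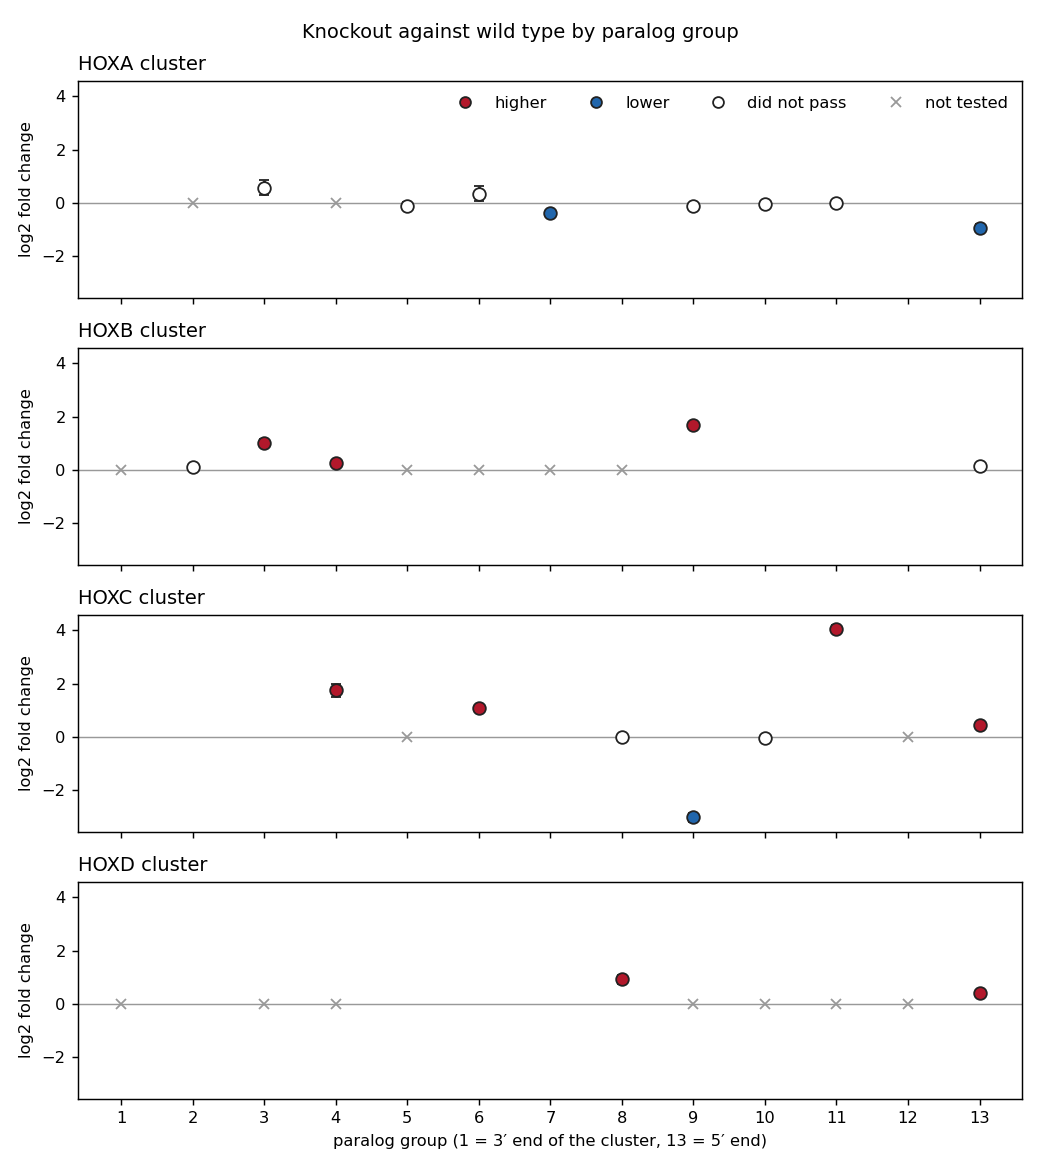
Log2 fold change of knockout over wild type with its SE (y axis) for 38 HOX genes by paralog group 1 to 13 (x axis), one panel per cluster. Red marks members called higher, blue those called lower, white those that did not pass, and grey crosses on the zero line members that were not tested; the 2 largest changes, 4.06 for HOXC11 and -3.02 for HOXC9, lie in HOXC.

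The HOXC cluster held the largest changes in both directions. HOXC11 (ENSG00000123388, chromosome 12, 53973126 to 53977643), a posterior gene active in the lumbosacral region and hindlimb of the embryo, had 15, 13 and 28 counts in replicates 1, 2 and 3 of wild-type cells and 323, 337 and 328 in those of the knockout. All 3 knockout libraries lay far above all 3 wild-type libraries. The level went from 1.97 ± 0.88 to 33.2 ± 1.1 CPM, 16.7-fold, for a log2 fold change of 4.06 (SE 0.14, edgeR's adjusted p = 6.0e-42). No other gene shares an exon with HOXC11, but the body of HOTAIR overlaps it, and unspliced HOTAIR RNA cannot be told apart from it in this kit.

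HOXC9 (ENSG00000180806, chromosome 12, 53994895 to 54003337), which takes part in patterning the thoracic spinal cord, went the opposite way. It had 146, 116 and 119 counts in wild-type cells and 17, 16 and 16 in the knockout, with no overlap of the groups. The level fell from 13.3 ± 0.87 to 1.65 ± 0.083 CPM, 8.09-fold lower, for a log2 fold change of -3.02 (SE 0.17, edgeR's adjusted p = 3.8e-27). Exons of HOXC6 on the same strand and of HOXC-AS2 on the other overlap it, and 90.3% of its exon length is its own.

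Between these genes lies HOXC10, 7.42 kb from HOXC11 and 4.62 kb from HOXC9, and it had 220, 185 and 185 counts in wild-type cells and 205, 203 and 187 in the knockout. Its log2 fold change of -0.06 (SE 0.087) did not pass (edgeR's adjusted p = 0.63). HOXC8, 5.77 kb beyond HOXC9, likewise overlapped between groups, with 121, 94 and 86 against 101, 90 and 122 counts (log2 fold change -0.01, SE 0.12, edgeR's adjusted p = 0.95). Opposite changes of over 8-fold were therefore measured on both sides of a gene for which no difference was detectable.

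The tested genes of the low-numbered end were higher in the knockout. HOXC4, which takes part in patterning the neck region, had 15, 8 and 12 counts in wild-type cells and 37, 36 and 51 in the knockout, 1.21 ± 0.29 against 4.16 ± 0.75 CPM (log2 fold change 1.75, SE 0.25, edgeR's adjusted p = 9.1e-09). HOXC6, a gene of the cervical and thoracic region, had 70, 62 and 45 counts against 131, 127 and 136, or 6.20 ± 1.2 and 13.3 ± 0.25 CPM (log2 fold change 1.09, SE 0.13, edgeR's adjusted p = 1.7e-11). The groups did not overlap for either gene. HOXC4 and HOXC6 overlap each other and HOXC5, and 82.2% and 84.3% of their exon lengths are their own. HOXC5 was not tested, with 13, 9 and 13 against 8, 10 and 6 counts. At the posterior end HOXC13, known from hair and nail formation, went from 144, 110 and 127 counts to 181, 183 and 176 (log2 fold change 0.44, SE 0.098, edgeR's adjusted p = 1.1e-04), and HOXC12 had at most 1 count in any library.

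The makeup of the HOXC signal changed accordingly. Reads of HOXC11 were 2.86% of the reads of all 9 HOXC members in wild-type cells and 32.6% in the knockout, those of HOXC9 19.5% and 1.62%, and those of HOXC10 30.1% and 19.7%. The summed level of the cluster was 68.5 ± 4.0 CPM in wild-type cells and 101.9 ± 1.0 CPM in the knockout, and the groups did not overlap. Sums were not tested. HOXB went from 58.0 ± 2.8 to 86.5 ± 5.8 and HOXD from 67.7 ± 1.9 to 93.9 ± 1.5 summed CPM, both without overlap, whereas HOXA stood at 116 ± 9.3 and 109.7 ± 2.7, with the groups overlapping.

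**Figure D3:**
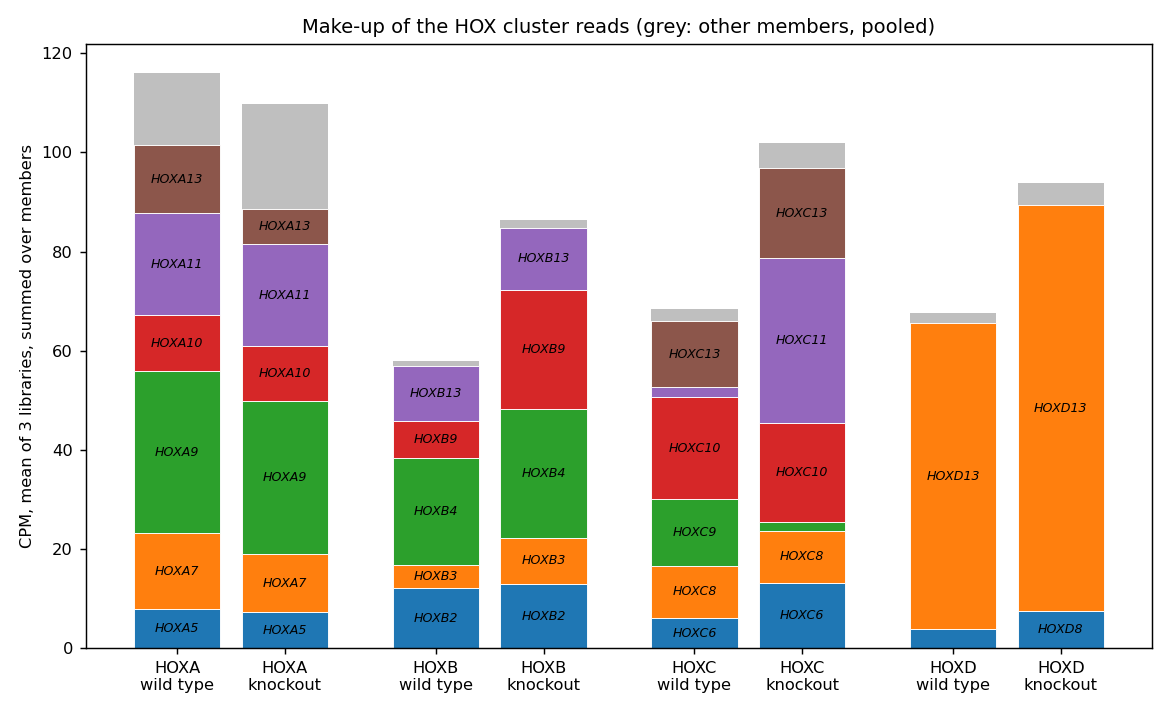
Summed mean CPM of the members of each cluster (y axis) in wild type and knockout (x axis, 3 non-directional libraries each), stacked by gene; the other members, most of them under 5% of the cluster in both genotypes, are pooled in grey. The HOXC bars exchange HOXC9 for HOXC11, HOXB9 grows within HOXB, and HOXD13 fills most of HOXD in both genotypes.

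In HOXB the change was led by HOXB9 (ENSG00000170689, chromosome 17, 48621159 to 48626356), a posterior gene of the thoracic region, which shares no exon with another gene but lies within the body of HOXB7 on the same strand. It had 87, 63 and 62 counts in wild-type cells and 244, 209 and 262 in the knockout. The groups did not overlap, and the level went from 7.40 ± 1.0 to 24.0 ± 2.4 CPM (log2 fold change 1.68, SE 0.11, edgeR's adjusted p = 5.9e-24). Its share of HOXB reads went from 12.8% to 27.8%. HOXB13, a gene of the prostate and tail region at a distance of 98.4 kb, had a log2 fold change of 0.16 (SE 0.11, edgeR's adjusted p = 0.25).

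HOXB3, a gene of the hindbrain, had 50, 37 and 45 counts in wild-type cells and 94, 76 and 106 in the knockout (log2 fold change 0.99, SE 0.15, edgeR's adjusted p = 3.4e-08), without overlap of the groups. It shares exons with HOXB4, HOXB6, HOXB-AS1 and HOXB-AS3, and 86.8% of its exon length is its own. HOXB4, known for expanding blood stem cells, rose from 231, 179 and 211 to 266, 232 and 276 counts with a log2 fold change of only 0.25 (SE 0.082, edgeR's adjusted p = 0.0076). That call was lost in the Wald test of DESeq2 (adjusted p = 0.118) and in an edgeR fit over all 12 libraries (adjusted p = 0.0741). HOXB2, another hindbrain gene, did not pass (log2 fold change 0.09, edgeR's adjusted p = 0.49). HOXB5, HOXB6, HOXB7 and HOXB8, numbered between HOXB4 and HOXB9, were not tested and had at most 12 counts in any library. HOXB8 had 1, 1 and 0 counts in wild-type cells and 2, 3 and 5 in the knockout, too few for a test.

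In HOXD 2 members were high enough to test. HOXD13 (ENSG00000128714, chromosome 2, 176092891 to 176095938) had 645, 533 and 582 counts in wild-type cells and 814, 800 and 824 in the knockout. No knockout library was as low as any wild-type library in CPM, and the log2 fold change was 0.40 (SE 0.049, edgeR's adjusted p = 3.1e-11). It supplied 91.1% of the HOXD reads in wild-type cells and 87.4% in the knockout. HOXD8, a central gene of trunk patterning, had 36, 35 and 41 against 75, 74 and 73 counts (log2 fold change 0.92, SE 0.16, edgeR's adjusted p = 1.3e-06).

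Beyond HOXD12, on the anterior side of HOXD13, a pair of limb-patterning genes was too low for the filter. HOXD11 had 1, 2 and 1 counts in wild-type cells and 13, 17 and 10 in the knockout, and HOXD10 had 2, 2 and 1 against 9, 13 and 7. The ratios of pooled counts were 9.59 (exact 95% interval 3.47 to 36.9, for counting error alone) and 5.56 (2.13 to 18.4). With no filter on low counts edgeR called both higher, with adjusted p = 1.7e-07 for HOXD11 and 3.0e-04 for HOXD10. The genes overlap each other on the same strand, and 78.6% and 83.2% of their exon lengths are their own. HOXD1, HOXD3, HOXD4, HOXD9 and HOXD12 had at most 11 counts in any non-directional library, with groups that overlapped in each case.

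In HOXA the largest change was downward. HOXA13 (ENSG00000106031, chromosome 7, 27193503 to 27200106), which patterns the distal limb and the urogenital tract, had 130, 111 and 149 counts in wild-type cells and 63, 78 and 73 in the knockout. The groups did not overlap, and the level fell from 13.7 ± 1.9 to 7.20 ± 0.76 CPM, 1.91-fold lower (log2 fold change -0.93, SE 0.12, edgeR's adjusted p = 7.7e-10). HOXA7, a central gene, had 165, 119 and 154 against 102, 102 and 147 counts (log2 fold change -0.39, SE 0.11, edgeR's adjusted p = 0.0024), but here the groups overlapped, and the Wald test of DESeq2 gave an adjusted p of 0.0805. HOXA-AS3 overlaps HOXA7 so far that 37.5% of its exon length is its own.

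The following 6 HOXA members were tested and did not pass. HOXA9, the HOXA gene best known from leukemia, had a log2 fold change of -0.11 (SE 0.074, edgeR's adjusted p = 0.23), which passed without wild-type replicate 2 (-0.20, edgeR's adjusted p = 0.0155). HOXA10 and HOXA11 had log2 fold changes of -0.03 (SE 0.12) and -0.01 (SE 0.087). HOXA5 had -0.11 (SE 0.14), HOXA6 0.34 (SE 0.29) and HOXA3 0.57 (SE 0.29, edgeR's adjusted p = 0.096). HOXA2 and HOXA4 had at most 5 counts in any library.

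The non-coding genes of the clusters were examined because several are transcribed beside the members that changed. Of 70 other genes within 20 kb of a cluster, 12 could be tested, and 3 were higher and 1 was lower (33.3%, against 51.5% of all genes). HOTAIR (ENSG00000228630, chromosome 12, 53962308 to 53974956), a long non-coding RNA reported to bind Polycomb complexes, lies on the strand opposite to HOXC11 and its gene body overlaps that of HOXC11 by 1.83 kb. It had 6, 5 and 4 counts in wild-type cells and 58, 72 and 57 in the knockout (0.52 ± 0.087 and 6.30 ± 0.92 CPM, log2 fold change 3.54, SE 0.28, edgeR's adjusted p = 1.9e-19). HOTAIR and HOXC11 were thus both higher. The ratio of pooled counts was 11.96 (exact 95% interval 7.07 to 21.8). HOTAIR passed the filter only through its knockout libraries.

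HOTTIP (ENSG00000243766, chromosome 7, 27198575 to 27207259), a long non-coding RNA at the posterior tip of HOXA that is known to bind the MLL subunit WDR5, overlaps the body of HOXA13 by 1.53 kb on the opposite strand. It had 27, 28 and 16 counts in wild-type cells and 3, 4 and 3 in the knockout, 2.50 ± 0.73 against 0.337 ± 0.062 CPM (log2 fold change -2.85, SE 0.39, edgeR's adjusted p = 1.6e-09). The ratio of pooled counts, knockout over wild type, was 0.135 (exact 95% interval 0.0621 to 0.263). HOTTIP passed the filter only through its wild-type libraries. HOTTIP and HOXA13 were thus both lower, whereas HOXA11, 8.28 kb beyond HOXA13, had 20.6 ± 1.2 and 20.5 ± 1.9 CPM. Where their bodies overlap, unspliced RNA of HOTTIP and of HOXA13 cannot be told apart in this kit. Also called were HOXC-AS2, with 8, 11 and 13 against 24, 22 and 21 counts (log2 fold change 0.99, SE 0.30, edgeR's adjusted p = 0.0036), and HAGLR, with 45, 19 and 22 against 38, 51 and 60 counts (log2 fold change 0.72, SE 0.21, edgeR's adjusted p = 0.0022), whose groups overlapped. Both calls were lost in the Wald test of DESeq2, with adjusted p = 0.0957 for HOXC-AS2 and 0.0746 for HAGLR. HOTAIRM1, HOXA-AS3, HOXA10-AS, HOXA11-AS, HOXB-AS1, HOXD-AS2, HAGLROS and AC016739.1 did not pass. HOXC13-AS, at 2, 1 and 0 against 9, 10 and 8 counts, was called higher only where the filter was absent or another fit was used. AC012531.1, not tested in the main fit, was called higher without a filter (log2 fold change 1.43, edgeR's adjusted p = 0.0168). It was also called when knockout replicate 2 or any 1 wild-type library was left out (edgeR's adjusted p 0.0033 to 0.033). HOXC-AS1 was called lower without a filter (-1.36, edgeR's adjusted p = 0.0336) and in the edgeR fit over 12 libraries (adjusted p = 0.0202). HOXC-AS1 lies within the body of HOXC9, and AC012531.1 within those of HOXC4 and HOXC6. Unspliced RNA of these members could be counted to them.

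The surroundings of the clusters were counted for comparison. Of 95 flanking protein-coding genes within 1 Mb of a cluster's ends, 68 were tested, and 19 were higher and 18 lower (54.4%, against 51.5% of all genes), with a median log2 fold change of -0.02. The medians were 0.03 around HOXA, 0.07 around HOXB, -0.06 around HOXC and -0.09 around HOXD. The only one to change by at least 2-fold was B4GALNT2, a glycosyltransferase gene near HOXB, with 2, 4 and 2 counts against 43, 41 and 48 (ratio of pooled counts 15.8, exact 95% interval 7.80 to 37.4), which passed the filter only through its knockout libraries. Next in size were PPP1R1A and PDE1B, both -0.91, SNX10, -0.80, and CALCOCO1, 0.80 on the log2 scale. PDE1B, with 22, 16 and 16 against 9, 10 and 11 counts, passed the filter only through its wild-type libraries.

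**Figure D4:**
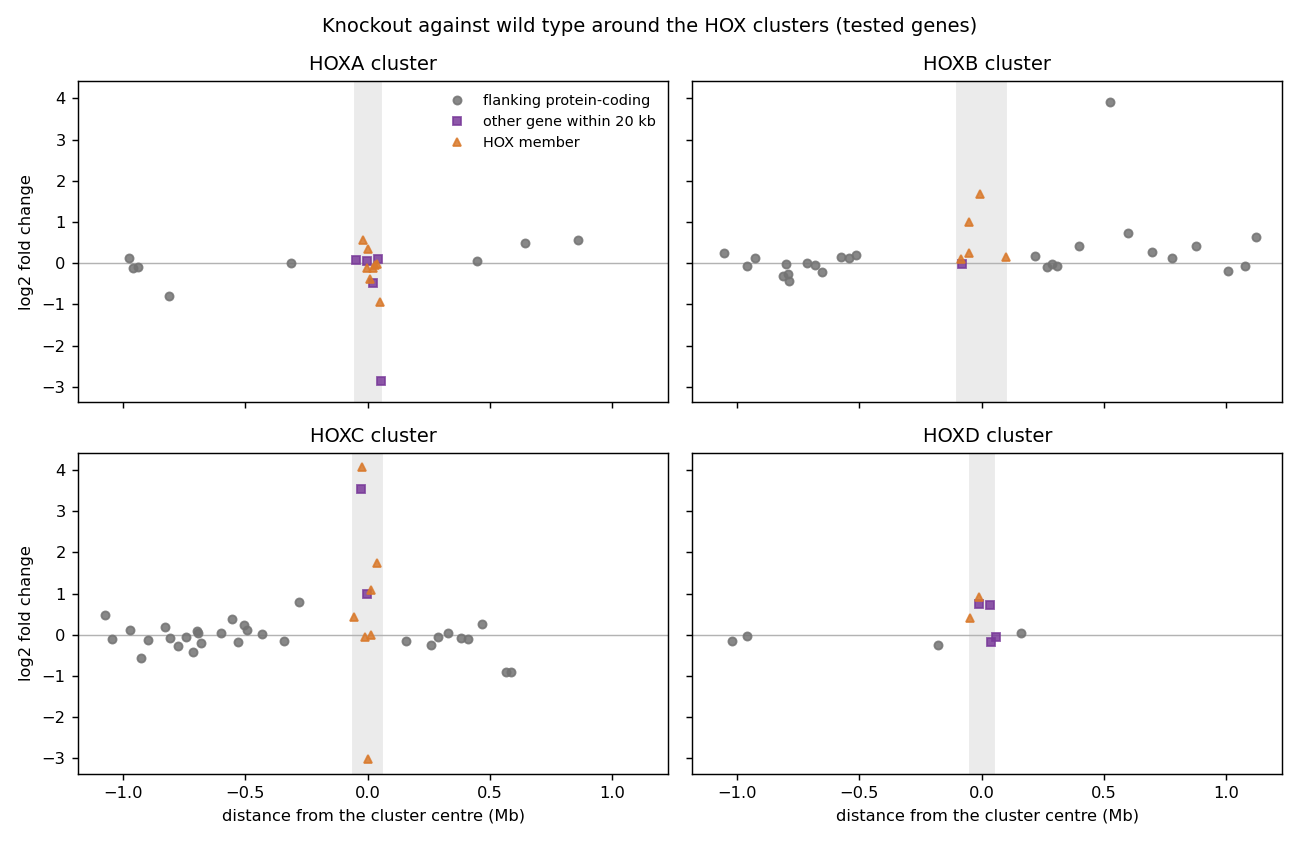
Log2 fold change of knockout over wild type (y axis) against distance from the centre of the cluster in Mb (x axis) for 22 tested members, other genes within 20 kb and flanking protein-coding genes of each cluster. The grey band is the span of the cluster; the changes of HOXC11, HOXC9, HOTAIR and HOTTIP stand within or at the edge of the bands, and B4GALNT2 is the one flanking gene beyond 1 on the log2 scale.

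Reads of the nearest long L1 elements were recovered for the same libraries. The L1PA5 element 84.4 kb from HOXA had 0 reads in all 6 non-directional libraries. On the sides of HOXD an L1PA6 element at 115 kb had 59, 55 and 76 reads in wild-type cells and 59, 97 and 88 in the knockout, and an L1PA3 element at 129 kb had 34, 25 and 29 against 24, 20 and 24. These values were not tested. Around HOXC and HOXB the nearest elements lay 721 kb and 2576 kb away.

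Genes that act with or on the HOX clusters were counted from lists of known cofactors and regulators. Of 9 TALE homeobox cofactors, with which HOX proteins bind DNA, 2 were higher and 1 lower, to be read, as for the lists that follow, against 25.5% and 25.9% of all genes. MEIS3 and PBX3 rose by 0.46 and 0.25 on the log2 scale. Of 21 genes of MLL/COMPASS and its partners 14 were higher and 2 lower, with a median log2 fold change of 0.15. The largest were DPY30 (0.77), a shared core subunit, KMT2D (0.67), a methyltransferase, and KDM6B (0.51), a demethylase of H3 lysine 27, while MEN1 (-0.16) and RBBP5 (-0.12) were lower.

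Polycomb genes went both ways. Of 12 PRC2 genes 2 were higher and 3 lower, with JARID2 at 0.54 and RBBP4 at 0.13, and RBBP7 at -0.35, EZH2, the methyltransferase, at -0.23 and PHF19 at -0.11 on the log2 scale. Of 20 PRC1 genes 6 were higher and 5 lower, led by PHC1 (0.79), CBX7 (0.77) and YAF2 (0.36) and by CBX6 (-0.56), PHC2 (-0.54) and PCGF5 (-0.16). Of 18 retinoid pathway genes 15 were tested, 3 being higher and 7 lower. CRABP2, which carries retinoic acid to its receptors, rose from 18.6 ± 2.4 to 53.3 ± 2.4 CPM (log2 fold change 1.51, edgeR's adjusted p = 1.9e-31), and STRA6, the retinol uptake receptor, fell from 4.25 ± 0.86 to 1.41 ± 0.17 CPM (log2 fold change -1.60, edgeR's adjusted p = 3.0e-08). DHRS3 (-0.89) and ALDH1A3 (-0.64) were the next lower ones. Of the 8 ParaHox and EVX genes, relatives of the HOX genes, only CDX2 was tested, and it was lower (log2 fold change -0.50, edgeR's adjusted p = 0.011). Whether any of these genes acted on the HOX members was not tested.

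The directional libraries could add little. They placed 94.6% of their reads in no gene and 3 counts stood for over 4 CPM in each library. The strand that was counted is not given in the sources used here. HOXA-AS3, on the strand opposite to HOXA7, had 413 to 550 counts in the directional wild-type libraries and 399 to 477 in the directional knockout, against 14 to 18 in the far deeper non-directional libraries. The directional count of a gene was therefore not read as its own transcription. Of the 4 members tested, HOXA7, HOXA10, HOXB3 and HOXD3, 0 passed in edgeR, 0 had an unadjusted p under 0.05 and 0 passed in DESeq2, against 16.2% of all 4745 genes tested. HOXC11 had 1, 0 and 1 directional counts in wild-type cells and 6, 9 and 3 in the knockout, too few for the filter, and the log2 fold change was 3.00 without a filter (edgeR's adjusted p = 0.011). At the HOTAIR locus, RF01905 and RF01906, annotated within HOTAIR on the opposite strand, had 0, 0 and 0 against 4, 5 and 3 and 0, 2 and 0 against 7, 5 and 10 directional counts. Of 9 neighbouring genes tested in this kit, HOXC-AS2 alone passed (log2 fold change 0.86, edgeR's adjusted p = 0.043), and this call was lost in the Wald test of DESeq2 (adjusted p = 0.352), without a filter, in the fit over 12 libraries and when any 1 library other than knockout replicate 3 was left out (adjusted p up to 0.342 by edgeR). In a direct test of the difference between kits 1 of the 23 members, HOXB3, passed, against 1.82% of all genes.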

How the data were processed

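RNA was sequenced from 12 HAP1 libraries, 3 for each of 2 genotypes in each of 2 kits, and groups and replicate numbers were taken from the sample titles. The publication named with the series concerns another experiment, and nothing was taken from it. The authors deposited raw gene counts for each library as whole numbers, ending in lines that total the reads outside genes or shared by several, all left out of library sizes and tests. Reads outside genes were 4.00 to 4.40% of the listed reads for the non-directional kit and 94.6% for the directional one, and those in several genes 8.37 to 8.41% in the non-directional ones. The submitters' processing notes list Trim Galore 0.4.4, STAR 2.6.0a, SAMtools 1.9, Picard 2.23.8, HTSeq 0.11.1, DESeq2 3.14 (as listed) and bedtools, with build hg38. The strand setting of the counting is not given in the sources used here. The authors also deposited a normalized signal per long L1 locus for the non-directional libraries, whose values were whole multiples of the smallest value in a library (within 0.01) and were turned back into reads. No per-sample column was without a sample (0 columns).

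Symbols, positions and exon overlaps came from GENCODE release 29, and promoter windows from RefSeq. Each kit was fitted alone in R 4.3.3: genes were filtered with filterByExpr (minimum count 10, minimum total 15), scaled by TMM, then compared by edgeR 4.0.16 (quasi-likelihood F-test), with p-values adjusted by Benjamini and Hochberg over all genes tested and a threshold of 0.05. Approximate SEs were obtained as the size of the log2 fold change over the square root of F. CPM is counts per 1000000 gene counts of the library. Differences between kits were tested by an interaction of genotype and kit over 12 libraries. Intervals on ratios of pooled counts are exact binomial (95%), and they and the limit of 3 counts cover counting error only, since no molecular identifiers were used. Nothing in the labels says that replicates came from separate cultures beyond the term biological replicate, so p-values measure the spread between these libraries.

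One member and 1 cofactor enter the counts and sums and are otherwise not reported here. All others were to be named, those past the threshold with values and those changed by at least 2-fold with every library, and of other lists the largest changes (up to 6 neighbours, up to 3 per list and direction). Members, lists and tests were chosen with earlier results of these data known. Alternatives were DESeq2 size factors, no filter, the Wald test of DESeq2 1.42.0, a replicate block, each library left out, a 2-fold threshold, 1 fit over 12 libraries, and the knockout libraries summed. The fit was tested on simulated data.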

Additional observations from a re-analysis of the deposited data

Results flagged for a closer look

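HOXB3 is listed because the knockout effect on the counts assigned to it differed between the kits in a direct test. Its directional count was not read as its own transcription. The test therefore compares unlike measures and cannot say whether the non-directional increase was repeated. The log2 fold change in the directional libraries minus that in the non-directional libraries was -1.12 (SE 0.24, adjusted p = 2.7e-04, genotype by kit term of edgeR). HOXB3 had 50, 37 and 45 counts in wild-type cells and 94, 76 and 106 in knockout cells with the non-directional kit, and 58, 67 and 53 against 49, 48 and 52 with the directional kit. The non-directional groups did not overlap. Per 1000000 gene counts the directional groups did overlap (97.7 ± 2.8 and 85.7 ± 8.5, SD, n = 3 each), and the directional difference alone did not pass (log2 fold change -0.20, edgeR adjusted p = 0.46). HOXB-AS1 and HOXB-AS3 overlap HOXB3 on the opposite strand, and the part of the strand counted in this difference was not tested.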

How the results depend on the processing

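Of the 13 calls among the members, the number was 13 with DESeq2 size factors, with the replicate block, with the knockout libraries summed as 1 and in the Wald test of DESeq2 (11 higher, 2 lower), 15 without a filter and 12 in the fit over 12 libraries. The 13 calls of the Wald test were not the same members. It lost HOXA7 and HOXB4 and called HOXD10 (adjusted p = 0.027) and HOXD11 (adjusted p = 0.0023) higher. That test and the fit without a filter each tested 38 members instead of 23. Requiring at least 2-fold left 5 members (4 higher, 1 lower), 2 neighbours within 20 kb, 1 flanking gene and 2 list genes. Without a filter 7 neighbours and 1 directional member were called, and the fit over 12 libraries also called 1 directional member, HOXC11 in both cases. That fit moved the split of the list genes from 27 higher and 19 lower to 21 and 25, and of the flanking genes from 19 and 18 to 12 and 21. The Wald test of DESeq2 called 3 neighbours, 27 flanking genes and 33 list genes, and the summed knockout, an arm of 1 sample assumed to vary like the wild type, 4, 29 and 37, where the reported counts are 4, 37 and 46. Leaving out 1 library gave 13 to 15 members called (10 to 11 higher, 3 to 4 lower), 4 to 5 neighbours, 31 to 39 flanking genes, 39 to 47 list genes, 0 directional members and 1 member with a kit difference. HOXD-AS2, with 9, 9 and 8 against 18, 17 and 11 counts, passed only without knockout replicate 3, its lowest knockout library (log2 fold change 0.96, edgeR adjusted p = 0.030). In the main fit HOXD-AS2 passed the filter only through its knockout libraries. With 1 library left out the log2 fold change was 3.87 to 4.48 for HOXC11 and -3.06 to -2.96 for HOXC9, and 4 members that did not pass turned sign near 0, HOXA10 (-0.184 to 0.0622), HOXA11 (-0.0925 to 0.0303), HOXC8 (-0.118 to 0.0856) and HOXC10 (-0.0915 to 0.0058), and the cause was not tested. Deviations from the group means were unrelated between libraries of equal number (mean correlation -0.0099, non-directional, and 0.0017, directional), so these share only a number and gave no pairing. The replicate block left 13 members, 4 neighbours, 37 flanking genes, 46 list genes, 0 directional members and 1 kit difference. Depth limits the 16 members that were not tested and nearly all directional values.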
